A study of Mus musculus with 6 samples.

Results

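Transcripts of the Nduf genes were measured in endothelial cell isolates from mouse lungs, with and without an endothelial knockout of Fundc1. Members were chosen by name: every gene of the count table whose mouse symbol starts with Nduf, leaving out symbols with -ps. The rule found 49 of the 56941 genes in the table, and 46 of them passed the filter on low counts and were tested. The other 3, Ndufa11b, Ndufb4c and Ndufs6b, had between 0 and 6 counts in any library. A gene listed as Ndufb1-ps (235, 258 and 279 counts across FL 1 to 3 and 264, 266 and 183 across EC-KO 1 to 3) was left out by the rule.

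The FL group consists of 3 libraries with the genotype FUNDC1-FLOX, and the EC-KO group of 3 libraries with the genotype FUNDC1-KO. FUNDC1 is a receptor for mitophagy, the removal of mitochondria by autophagy, and it sits in the outer mitochondrial membrane. Both groups were primary endothelial cells taken from lungs with magnetic beads, freed of dead cells and kept in endothelial medium with serum. PolyA RNA was sequenced. Every sample title names the cells PAECs, an abbreviation that the titles do not spell out. The Cre line, the antibody on the beads, and the age and sex of the mice are not stated in the sources used here. Nothing in the labels says that libraries of a group came from separate mice, and the p-values then cover only the spread among these libraries, which may be technical.

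Complex I, or NADH:ubiquinone oxidoreductase, is the entry point of electrons from NADH into the respiratory chain. It passes them to ubiquinone and pumps protons across the inner mitochondrial membrane. Its core subunits carry out this chemistry, accessory subunits surround and stabilise them, and assembly factors build the enzyme in modules without staying in it. The N module oxidises NADH, the Q module reduces ubiquinone, and the membrane arm is built from modules named after the mitochondrially encoded subunits ND1, ND2, ND4 and ND5. The nuclear genome encodes the Nduf subunits, and the mitochondrial genome encodes the remaining core subunits, the mt-Nd genes.

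Total counts were between 26.7 M and 34.3 M per library, of which the Nduf genes took 19817 to 26970 counts, or 0.0679% to 0.0807%. Fundc1 was at 25.1, 32.0 and 30.7 CPM (counts scaled to library size) across FL 1 to 3 and at 14.1, 18.2 and 12.8 across EC-KO 1 to 3. It was lower in every EC-KO library (log2 fold change -0.96 ± 0.19 SE, adjusted p = 0.00796, edgeR's quasi-likelihood test). All 12 endothelial markers were detected, with Pecam1 at 1840 and Cdh5 at 2230 CPM on average in FL, so the isolates held endothelial RNA. The same isolates differed in markers of cell type: 7 of 12 endothelial markers fell (list median -1.04 on the log2 scale), 7 of 8 macrophage markers fell (-2.13), 7 of 7 smooth muscle and pericyte markers fell (-1.20), 10 of 10 epithelial markers rose (2.78) and 6 of 8 fibroblast markers rose (1.94). In bulk samples fewer cells of a type and less RNA per cell cannot be told apart, and every value below describes the whole isolate.

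Nduf transcripts as a group differed little between EC-KO and FL. Of the 46 tested, 1 fell (Ndufaf7), 0 rose and 45 did not pass the test, at an adjusted p threshold of 0.05 over all genes in edgeR's quasi-likelihood test. Over all 18562 genes tested, 27.1% passed it, 13.5% higher and 13.5% lower. With no adjustment, 4 Nduf genes (8.7%) had a p under 0.05, beside 40.6% of all genes. DESeq2 called 3 Nduf genes (2 higher, 1 lower), beside 33.4% of all genes. Summed over the 49 genes, the genes gave 751, 705 and 780 CPM across FL 1 to 3 and 768, 846 and 660 across EC-KO 1 to 3. The highest and the lowest of these sums were both in EC-KO, so the FL values lay inside the range of the EC-KO values.

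Among those tested, the median log2 fold change of the Nduf genes was 0.027, beside 0.034 over all genes tested. The quartiles were -0.17 and 0.27 for the Nduf genes and -0.45 and 0.56 for all genes. In 28 of 46 the value was above 0 (60.9%, beside 51.8% of all genes), a number that ranged from 26 to 31 under other scalings of library size. Without EC-KO 2 it was 18 of 46 with a median of -0.081, and without FL 1 it was 23 of 46 with a median of -0.0016, so the sign of the group's small difference rests on these libraries. No Nduf gene had an estimate beyond a 2-fold change in either direction, as 23% of all genes did. The 95% interval of the change lay within a 2-fold change either way for 40 of 46 Nduf genes, and within a 1.5-fold change for 15. CPM did not overlap between the groups for 9 of 46 Nduf genes (19.6%, beside 45.4% of all genes), 4 of them higher across EC-KO (beside 22.6%) and 5 lower (22.8%).

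**Figure D1:**
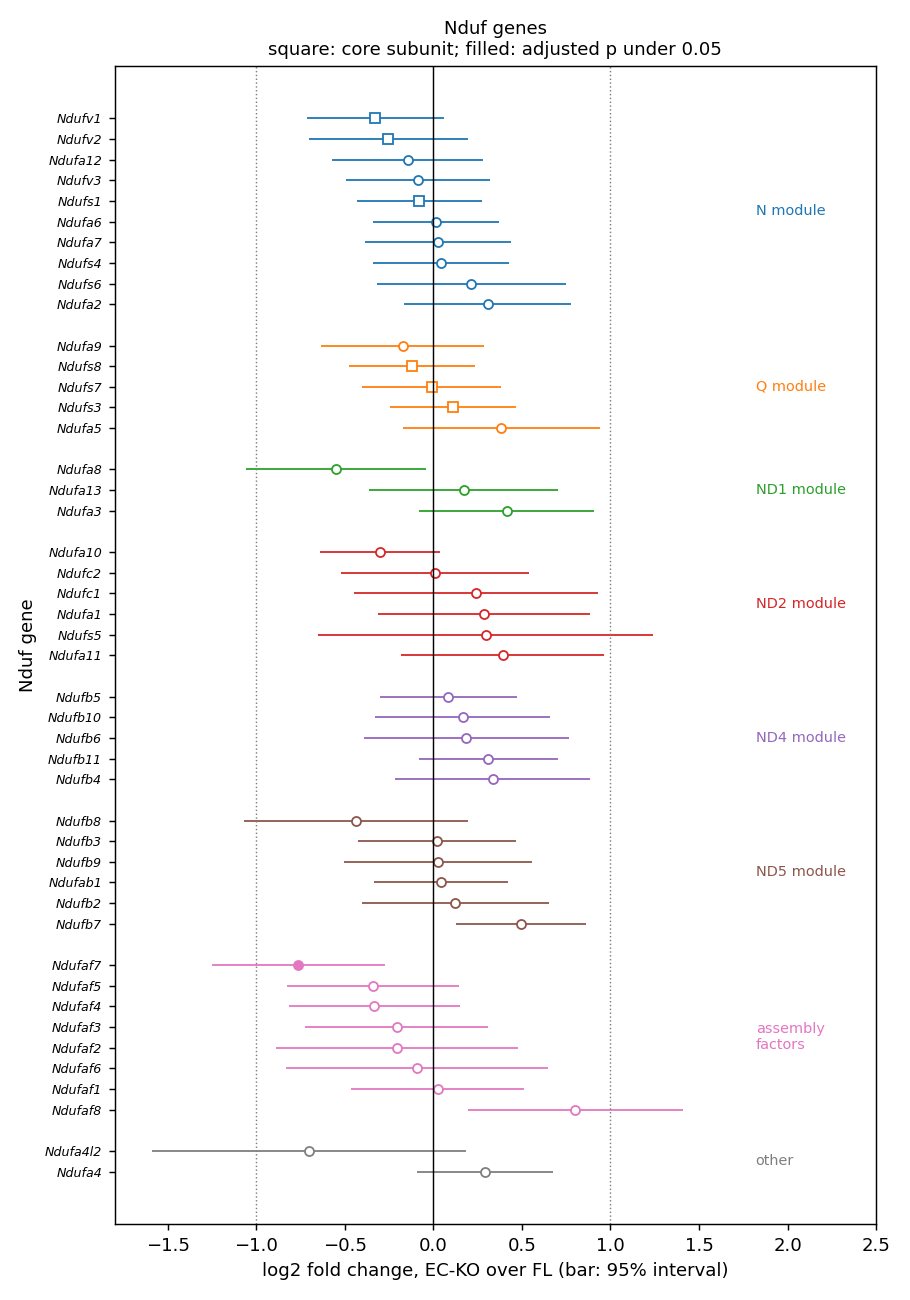
Log2 fold change of EC-KO over FL (horizontal axis) for 45 of the Nduf genes tested (vertical axis), grouped by complex I module, with bars for the 95% interval and dotted lines at a 2-fold change. Squares are core subunits, and the filled point, Ndufaf7 at -0.76, is the gene that passed the test; estimates run from there to 0.80 for Ndufaf8.

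The 7 nuclear core subunits carry the flavin, the iron-sulfur clusters and the ubiquinone pocket of the peripheral arm. Of these, 0 of 7 passed the test, beside 27.1% of all genes. Ndufv1, which binds NADH and the flavin, was at 46.1, 44.7 and 59.9 CPM across FL 1 to 3 and at 40.4, 43.2 and 36.5 across EC-KO 1 to 3. Its groups did not overlap, but the change of -0.33 (95% interval -0.71 to 0.058, adjusted p = 0.183, edgeR) did not exceed the spread between libraries by the test. FL 3 was the library that stood highest for it. Ndufv2, the iron-sulfur partner of Ndufv1, was at 29.8, 25.1 and 29.3 CPM across FL and 22.9, 29.2 and 18.5 in EC-KO, with a change of -0.25 (-0.70 to 0.20). Ndufs1, the largest subunit with several iron-sulfur clusters, was at 44.7, 46.5 and 47.9 CPM across FL and 48.3, 37.7 and 45.7 across EC-KO (-0.079, from -0.43 to 0.27). These 3 genes form the NADH-oxidising tip, and for the last pair the groups overlapped.

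In the Q module, the core subunit Ndufs3 was at 27.4, 24.4 and 28.8 CPM across FL and 30.8, 26.5 and 29.8 across EC-KO (0.11, from -0.24 to 0.47). The subunits Ndufs7 (-0.010, from -0.40 to 0.38) and Ndufs8 (-0.12, from -0.48 to 0.24), which carry the last iron-sulfur clusters before ubiquinone, were at 14.9 and 19.1 CPM on average in FL and at 14.8 and 17.6 in EC-KO. For these 3 the interval excluded a change of 1.5-fold in either direction.

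Accessory subunits also gave 0 of 29 calls, beside 27.1% of all genes. Of their estimates 23 were above 0 (beside 51.8% of all genes) and 6 below, with a median of 0.12. Relative to FL their mean was 0.13, 0.28 and -0.15 across EC-KO 1 to 3, so EC-KO 3 lay below FL. The nearest to the threshold was Ndufb7, an ND5-module subunit on the intermembrane space side. It was at 19.2, 17.4 and 19.4 CPM across FL 1 to 3 and at 29.4, 23.6 and 25.9 across EC-KO 1 to 3, and every EC-KO library was above every FL library. The change was 0.50 ± 0.16 (SE; 95% interval 0.13 to 0.86) with an adjusted p of 0.0509 in edgeR. At the same threshold it passed under 7 of the alternatives, among them DESeq2 (adjusted p = 0.0269) and the comparison without EC-KO 2 (0.0212). It did not pass with any 1 of the other libraries left out (adjusted p from 0.115 to 0.183, edgeR). Nor did it with the replicate number as a block (0.108) or without a filter on low counts (0.124).

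Ndufa8, an ND1-module subunit of the same side with paired disulfide bonds, stood the other way. Its CPM were 21.1, 20.5 and 30.6 across FL 1 to 3 and 15.1, 20.3 and 13.9 across EC-KO 1 to 3. EC-KO 2 came within a small margin of FL 2, and the other EC-KO libraries lay well below FL. The change was -0.55 ± 0.22 (SE; -1.06 to -0.044, adjusted p = 0.0979, edgeR). Without EC-KO 2 the gene passed the test (-0.76, adjusted p = 0.0205). Ndufa8 did not pass with any 1 of the other libraries left out (adjusted p from 0.0988 to 0.317, edgeR). Without FL 3, its highest library, the change was -0.37. The gene also did not pass with the replicate number as a block (0.162) or in DESeq2 (0.0760).

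**Figure D2:**
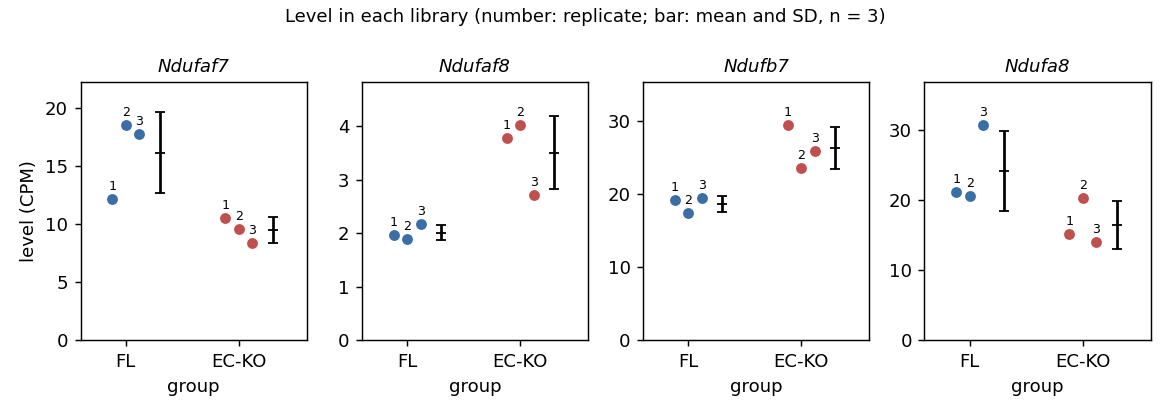
CPM (vertical axis) of Ndufaf7, Ndufaf8, Ndufb7 and Ndufa8, the 4 Nduf genes with an unadjusted p under 0.05, in each FL and EC-KO library (points, numbered by replicate), with the mean and SD of 3 libraries beside them. In each panel the groups do not overlap, and for Ndufa8 the gap is the small one between EC-KO 2 at 20.3 and FL 2 at 20.5 CPM.

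Among the remaining N-module subunits, changes ran from -0.15 for Ndufa12 to 0.31 for Ndufa2, and the module's median was -0.032. Ndufs4, whose loss causes a Leigh-like disease in mice, was at 16.5, 17.8 and 20.01 CPM across FL and 19.0, 20.3 and 16.7 across EC-KO (0.044, from -0.34 to 0.43). Its groups overlapped almost entirely. Ndufa2 was at 10.006, 9.53 and 7.61 CPM across FL and 10.02, 13.3 and 10.2 in EC-KO. Its groups did not overlap, but FL 1 and EC-KO 1 were almost equal, and the adjusted p was 0.302 (edgeR). Ndufs6, a zinc-binding subunit, was at 0.21, Ndufv3 at -0.089, Ndufa6 at 0.015 and Ndufa7 at 0.027. In the Q module the accessory subunits Ndufa5 (0.38, from -0.17 to 0.94) and Ndufa9 (-0.17, from -0.64 to 0.29) lay on opposite sides of 0.

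The modules ND1 (0.17), ND2 (0.26) and ND4 (0.19) of the membrane arm had the higher medians. On the log2 scale relative to FL, their means across EC-KO 1 to 3 were 0.028, 0.26 and -0.28 for ND1. They were 0.20, 0.46 and -0.28 for ND2 and 0.18, 0.46 and -0.034 for ND4. In each, EC-KO 2 was highest and EC-KO 3 lay below the FL mean. In the ND2 module the median was 0.26 over 6 genes, with Ndufa11 (0.39), Ndufs5 (0.29), Ndufa1 (0.29), Ndufc1 (0.24) and Ndufc2 (0.0089) above 0 and Ndufa10 below. Ndufa10 was at 39.5, 35.7 and 37.7 CPM across FL 1 to 3 and 33.1, 30.4 and 28.0 across EC-KO 1 to 3. All EC-KO values were below all FL values, and the change of -0.30 (-0.64 to 0.037, adjusted p = 0.164, edgeR) did not pass. Ndufs5 had the widest interval of the subunits (-0.65 to 1.24), with 3.64, 7.70 and 5.24 CPM across FL and 5.63, 11.1 and 3.65 in EC-KO. In the ND4 module all 5 genes found were above 0, beside 51.8% of all genes. They ran from 0.085 for Ndufb5 to 0.34 for Ndufb4, with Ndufb6 at 0.19, Ndufb10 at 0.17 and Ndufb11 at 0.31. Ndufb1, also listed for this module, matched no symbol. Ndufb1-ps, left out by the rule, was at -0.23 (-0.71 to 0.26, adjusted p = 0.462, edgeR). The X-linked Ndufb11 was at 30.7, 27.9 and 26.5 CPM across FL and 39.1, 37.7 and 28.6 in EC-KO, where EC-KO 3 lay inside the FL range. In the ND1 module Ndufa3 (0.41, from -0.079 to 0.91) and Ndufa13 (0.17) were above 0. Without EC-KO 2, Ndufa13 was at -0.11. The ND5 module had a median of 0.036, with Ndufb8 lowest at -0.44 (-1.07 to 0.20) and Ndufb2 (0.12), Ndufb9 (0.027) and Ndufb3 (0.022) near 0. Ndufab1, the mitochondrial acyl carrier protein that also sits in complex I, was nearly level: 11.0, 11.3 and 10.9 CPM across FL and 11.6, 11.2 and 11.5 across EC-KO (0.045). None of these changes passed the test, and differences between modules were not tested.

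Assembly factors held the gene that passed. Ndufaf7, a mitochondrial methyltransferase that acts on a core subunit early in complex I assembly, was at 12.1, 18.5 and 17.8 CPM across FL 1 to 3 and at 10.6, 9.56 and 8.38 across EC-KO 1 to 3. FL 1 was the FL library nearest to EC-KO, and the groups did not overlap. Means were 16.1 ± 3.49 in FL and 9.5 ± 1.10 in EC-KO (SD, n = 3 each). Ndufaf7 fell by 0.76 ± 0.22 (SE) on the log2 scale (95% interval -1.25 to -0.28), with adjusted p = 0.0302 by edgeR. The call was lost with FL 2 (adjusted p = 0.115) or FL 3 (0.0995) left out, and likewise with EC-KO 1 (0.0614) or EC-KO 3 (0.0882) left out, while the change stayed between -0.66 and -0.96 with any 1 library left out. Ndufaf7 (ENSMUSG00000024082) lies on chromosome 17, 79244565 to 79255481, plus strand, by the count table's own coordinates. In the same coordinates Ndufb7 (ENSMUSG00000033938) lies on chromosome 8, 84293300 to 84298255, plus strand, Ndufaf8 (ENSMUSG00000078572) on chromosome 11, 119989754 to 119991531, plus strand, and Ndufa8 (ENSMUSG00000026895) on chromosome 2, 35926338 to 35939418, minus strand. Only 3 of the 49 Nduf genes have the same start and end in the GENCODE annotation of GRCm38 at hand. In RefSeq on GRCm38.p6 the 250 bases before the start of Ndufaf7 end at 78937134, far from 79244565. The table as a whole thus does not follow GRCm38 coordinates, although the processing notes name mm10 (GRCm38). Which build it follows is not resolved.

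Ndufaf8, a small partner of the hydroxylase Ndufaf5, had the highest estimate of the Nduf genes and did not pass. It was at 1.97, 1.89 and 2.16 CPM across FL 1 to 3 and at 3.78, 4.01 and 2.72 across EC-KO 1 to 3, so all EC-KO values were above all FL values. The change was 0.80 ± 0.27 (SE; 0.19 to 1.41, adjusted p = 0.0543, edgeR), on counts of 52 to 131 per library. DESeq2 called it (adjusted p = 0.0299), as did edgeR with upper-quartile scaling (0.0390), library-size scaling (0.0342) or the filter of 1 CPM in 3 libraries (0.0434). Ndufaf8 was not called with any 1 library left out (adjusted p from 0.0588 to 0.155, edgeR). The call was also absent with the replicate number as a block (0.124), without a filter on low counts (0.119) and in limma-voom (0.0607). Ndufaf5 itself was at 5.80, 5.19 and 4.84 CPM across FL and 4.45, 4.14 and 3.90 in EC-KO, without overlap and with a change of -0.34 (-0.83 to 0.14, adjusted p = 0.264). The estimates of these partners lay on opposite sides of 0, and neither passed the test.

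The other assembly factors named Nduf stayed closer to FL. Ndufaf3 (-0.21, from -0.73 to 0.31) and Ndufaf4 (-0.33, from -0.82 to 0.15), which act together on the Q module, were both below 0 without passing the test. Ndufaf1, which builds the membrane arm with Ecsit and Acad9, was at 4.78, 5.35 and 4.75 CPM across FL and 5.11, 4.39 and 5.63 across EC-KO (0.024). Ndufaf2, which holds the place of Ndufa12 before the N module docks, was at -0.21, and Ndufaf6 at -0.091. Over the 8 factors the median was -0.21, with 6 below 0 and 2 above, where 51.8% of all genes were above 0.

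Among 13 complex I assembly factors without an Nduf name, 1 fell, 1 rose and 11 did not pass, where 27.1% of all genes passed. Of the 13 estimates, 11 were below 0 and 2 above (beside 51.8% of all genes above 0). Their median was -0.32, beside 0.034 over all genes. Timmdc1, which anchors early membrane intermediates, was at 4.62, 5.59 and 8.86 CPM across FL 1 to 3 and 2.97, 3.42 and 2.29 across EC-KO 1 to 3. Its groups did not overlap, and the change was -1.14 ± 0.30 (SE, adjusted p = 0.0246, edgeR). It was not called once FL 2 (0.0525) or FL 3 (0.0991) was removed, nor once EC-KO 1 (0.0744) or EC-KO 3 (0.0743) was. Dmac2, a factor of the distal membrane arm, was at 23.0, 23.8 and 24.4 CPM across FL and 41.8, 26.2 and 42.7 in EC-KO. EC-KO 2 stood close to FL and the other EC-KO libraries far above it. The change of 0.63 ± 0.21 (SE, adjusted p = 0.0496, edgeR) kept its call with EC-KO 2 left out (0.00224), but removing FL 1 (0.131), FL 2 (0.139) or FL 3 (0.140), or else EC-KO 1 (0.161) or EC-KO 3 (0.159), ended the call. It was also lost with RLE scaling (0.0512), with library sizes without mitochondrially encoded genes (0.0551) and in limma-voom (0.0640).

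Promoter sequences of the 4 Nduf genes of lowest p are shown because they are the ones whose groups stood apart at an unadjusted p under 0.05, in both directions. Sequences are from RefSeq on GRCm38.p6, whose coordinates differ from those of the count table. They run 5′ to 3′ on the strand of the gene over the 250 bases before its start. Capitals mark matches to the motifs of NRF1 and of ETS factors, which are known regulators of respiratory chain genes. The intervals are chr17:78936885-78937134 (plus) for Ndufaf7, chr8:83566508-83566757 (plus) for Ndufb7, chr11:120098684-120098933 (plus) for Ndufaf8 and chr2:36049339-36049588 (minus) for Ndufa8.
Ndufaf7: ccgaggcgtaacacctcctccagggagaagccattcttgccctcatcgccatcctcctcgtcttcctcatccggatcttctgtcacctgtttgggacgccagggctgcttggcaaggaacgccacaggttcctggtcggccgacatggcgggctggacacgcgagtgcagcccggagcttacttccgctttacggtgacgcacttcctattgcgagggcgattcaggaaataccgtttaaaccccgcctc
Ndufb7: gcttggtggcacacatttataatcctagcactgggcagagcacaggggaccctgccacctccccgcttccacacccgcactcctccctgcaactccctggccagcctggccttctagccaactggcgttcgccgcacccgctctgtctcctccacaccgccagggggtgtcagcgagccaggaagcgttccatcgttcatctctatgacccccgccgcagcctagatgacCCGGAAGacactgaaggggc
Ndufaf8: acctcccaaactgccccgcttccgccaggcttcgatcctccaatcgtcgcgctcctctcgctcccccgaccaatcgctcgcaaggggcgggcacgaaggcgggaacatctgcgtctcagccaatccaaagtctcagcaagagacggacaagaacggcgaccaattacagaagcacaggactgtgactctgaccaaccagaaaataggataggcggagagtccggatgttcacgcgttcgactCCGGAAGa
Ndufa8: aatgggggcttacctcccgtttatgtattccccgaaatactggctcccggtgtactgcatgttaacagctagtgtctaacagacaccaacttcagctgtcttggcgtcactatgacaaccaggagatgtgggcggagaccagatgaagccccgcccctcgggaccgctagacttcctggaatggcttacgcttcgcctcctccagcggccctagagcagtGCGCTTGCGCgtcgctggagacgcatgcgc

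Ndufb7 and Ndufaf8 each hold an ETS match a short distance before the start, and Ndufa8 holds an NRF1 match. Among all Nduf genes, estimates lay on both sides of 0 for holders of either motif. With the NRF1 motif, Ndufa11 was at 0.39 and Ndufa8 at -0.55, and with the ETS motif, Ndufb7 was at 0.50 and Ndufs8 at -0.12. Ndufaf7 holds neither in these bases. RefSeq windows from 250 bases before to 50 after the start matched 40 of the 49 Nduf genes and 12455 of the symbols tested. Motifs were searched on both strands. The NRF1 motif was in 9 of 40 (22.5%, beside 9.67% of all tested genes with a window). The YY1 motif AAGATGGCG was in 6 of 40 (15%, beside 2.98%) and the ETS motif CCGGAAG in 6 of 40 (15%, beside 17.4%). The SP1 motif GGGCGG was in 21 (52.5%, beside 62.9%), the CRE TGACGTCA in 3 (7.5%, beside 3.23%) and the hypoxia response motif ACGTG in 7 (17.5%, beside 27.4%). The ERR motif TCAAGGTCA was in 0 of 40 (beside 0.345%), which says only that these letters are not in these windows. No motif contains another, though matches may overlap, and the shares are descriptions that were not tested.

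Ndufa4 and Ndufa4l2 carry an Nduf name but are not complex I subunits by present knowledge. Ndufa4 is a subunit of complex IV, and Ndufa4l2 is its paralog that is induced under low oxygen. Ndufa4 was at 18.3, 19.9 and 18.3 CPM across FL 1 to 3 and 22.1, 26.8 and 20.2 across EC-KO 1 to 3, with every EC-KO library above FL and a change of 0.29 (-0.095 to 0.68, adjusted p = 0.234, edgeR). Ndufa4l2 was at 4.70, 6.75 and 9.23 CPM across FL and 3.06, 6.90 and 2.78 in EC-KO. EC-KO 2 lay inside the FL range and the other EC-KO libraries below it, and the change was -0.70 (-1.59 to 0.19, adjusted p = 0.212). Without EC-KO 2 it was -1.27 with an adjusted p of 0.0138. With any 1 of the other libraries left out Ndufa4l2 was not called (adjusted p from 0.138 to 0.509, edgeR). Smooth muscle and pericyte markers were at -1.51, -0.88 and -1.12 relative to FL across EC-KO 1 to 3, and their part in the result was not tested. The Ndufa4l2 gene also shares its span with Shmt2 on the other strand, which went from 25.5 to 43.5 CPM. The strand setting of the counting is not stated, so reads of this pair may not be separable.

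Library means of the Nduf genes lay further apart across EC-KO than across FL. Mean values of the 46 genes relative to FL were -0.027, -0.023 and 0.050 across FL 1 to 3 and 0.049, 0.19 and -0.21 across EC-KO 1 to 3. EC-KO 3 was the lowest of the EC-KO libraries for 33 of 46 Nduf genes (71.7%, beside 32.8% of all genes tested), and EC-KO 2 the highest for 28 (60.9%, beside 44.1%). The order EC-KO 2, EC-KO 1, EC-KO 3 held for 23 of 46 (50%, beside 24%). The means of EC-KO 2 and EC-KO 3 thus lay on either side of FL. EC-KO 3 was also the library with the most alignments outside any gene (14.4%, beside 9.10% to 10.8% in the others), and EC-KO 2 had the highest epithelial (3.38), fibroblast (2.36) and, among EC-KO libraries, endothelial (-0.46) marker means. The part of these in the Nduf values was not tested.

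**Figure D3:**
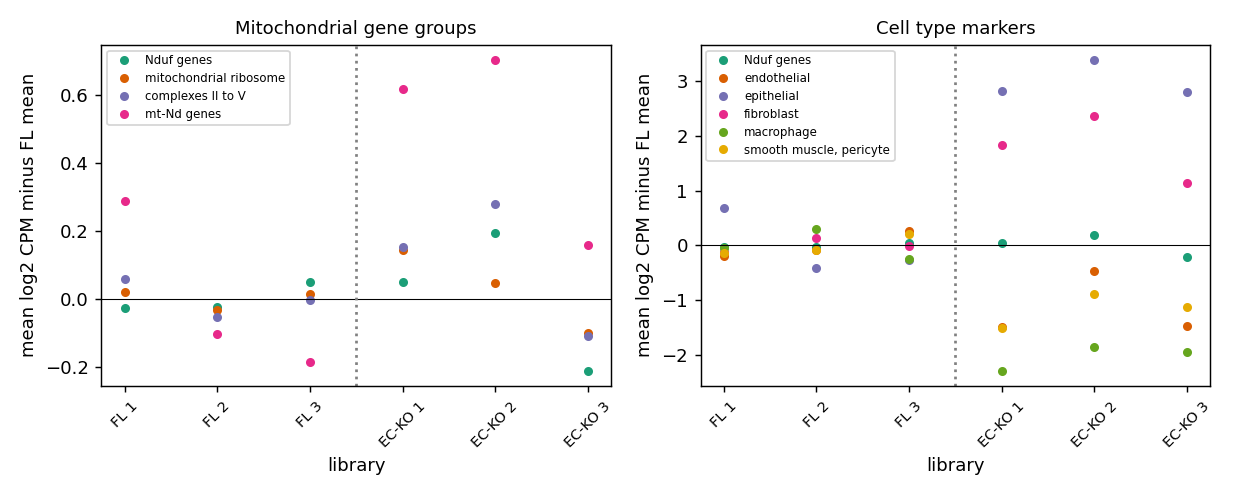
Mean log2 CPM minus the FL mean (vertical axis) in each of the 6 libraries (horizontal axis), for mitochondrial gene groups (left) and for Nduf genes beside cell type markers (right), with 1 point per library and group. Nduf genes stay between -0.21 and 0.19, while epithelial markers reach 3.38 and macrophage markers -2.29.

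Over all genes tested, 13.5% rose and 13.5% fell, with a median of 0.034 and 51.8% of estimates above 0. Of 44 tested nuclear subunits of complexes II to V, 2 rose and 2 fell, with a median of 0.088. Of 78 mitochondrial ribosomal proteins, 4 rose and 2 fell, with a median of 0.055. The groups did not overlap for 28 of them (35.9%, beside 45.4% of all genes). Both lists reached further than the Nduf genes, up to 1.56 for Cox6a2 and 1.33 for Mrps22, which were picked out after their values were seen as the highest of each list. In EC-KO 3 both lists were also below FL (-0.11 and -0.100), as the Nduf genes were (-0.21). The mitochondrially encoded core subunits of complex I were higher in estimate: 7 of 7 mt-Nd genes were above 0, with a median of 0.54 and 0 called, the nearest being mt-Nd2 (0.72, from 0.17 to 1.27, adjusted p = 0.0559, edgeR). Their sum was 8675, 6507.5 and 6107 CPM across FL 1 to 3 and 11520, 11982 and 7988 across EC-KO 1 to 3, so EC-KO 3 lay below FL 1. With no adjustment 3 of the 7 had a p under 0.05, beside 40.6% of all genes. DESeq2 called mt-Nd2 (adjusted p = 0.0157), beside 33.4% of all genes called by that tool. mt-Nd1 was at 0.54, mt-Nd3 at 0.12, mt-Nd4 at 0.41, mt-Nd4l at 0.52, mt-Nd5 at 0.60 and mt-Nd6 at 0.54. FL 1 bore on these values: without it mt-Nd5 (0.83, adjusted p = 0.0474, edgeR) and mt-Nd6 (0.92, 0.0238) were called higher. Without FL 3, mt-Nd5 was at 0.34 (0.376), and without EC-KO 3, mt-Nd2 was called (0.89, 0.0350). The difference between the mt-Nd and Nduf genes was not tested.

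Levels per length were taken as CPM per kilobase of gene length (FPKM). Among the highest on average in FL were Ndufb11 (31.2), Ndufa8 (28.0), Ndufc2 (27.5), Ndufb10 (22.1) and Ndufv1 (19.1), and the lowest was Ndufb2 (0.719). The 3 FL values of each of these 5 high genes overlapped those of the next. Over all 45 neighbouring pairs in the order of FL means, 5 did not overlap, so the order is coarse. Core subunits had a median of 13.1 FPKM in FL, accessory subunits 7.44 and assembly factors named Nduf 2.75, and the highest of the assembly factors was Ndufaf7 itself at 4.61. The order was nearly the same in EC-KO: across the 46 genes, which are not independent replicates and share libraries, log2 FPKM in FL and in EC-KO had a Pearson r of 0.974, and the largest move was that of Ndufaf8, by 8 places.

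**Figure D4:**
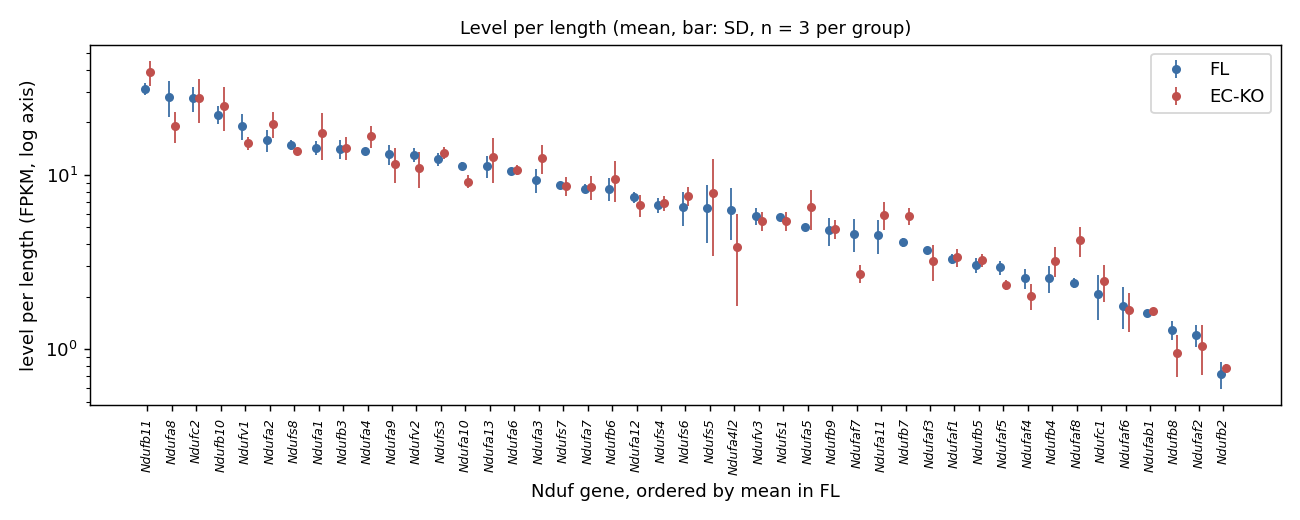
Level per length (FPKM, log axis) of 45 tested Nduf genes, ordered by the FL mean, in FL and EC-KO (points: mean; bars: SD, n = 3 each). Levels run from 31.2 FPKM for Ndufb11 to 0.719 for Ndufb2 in FL, and the points of both groups follow each other except at genes such as Ndufaf7 and Ndufaf8.

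Length enters these levels through the table: for 49 of 49 Nduf genes it equals the merged bases of all listed exons. It is 6883 bases for Ndufab1, 5628 for Ndufb2 and 8086 for Ndufs1, and the lengths of single transcripts were not used. Nduf genes were short, with 40 of 46 below the median length of all tested genes. Log2 fold change and log2 length had a Pearson r of -0.31 over the 46 Nduf genes and -0.090 over all genes tested, a description across genes that share libraries. In the table, 24 of the 49 Nduf genes share part of their span with another gene, 19 of them with one on the other strand, and alignments to several places, which made up 9.10% to 11.5%, were not counted. Values of Nduf genes with near-identical pseudogenes elsewhere are uncertain to that extent.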

How the data were processed

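RNA of 6 libraries (3 FL, 3 EC-KO) was analysed. Raw read counts by Ensembl gene, and counts of alignments in each class, were used as deposited, and per the file headers featureCounts made both. STAR 2.7.10b, featureCounts 2.0.3 and mm10 stand in the submitters' processing notes, with no role. For the annotation and the strand setting, nothing is given in the sources used here. Another 2 columns of the count table could be tied to no labelled sample and were set aside. Gene length, an other value in the deposited table, was used for FPKM.

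Symbols were matched by gene identifier for 51948 of 56941 genes. Genes were filtered with filterByExpr (18562 of 33412 with any count kept), scaled with TMM factors and tested with edgeR 4.0.16 in R 4.3.3 (robust quasi-likelihood F test, EC-KO against FL, no covariates, two-sided, Benjamini-Hochberg over all genes, threshold 0.05). Standard errors are the absolute log2 fold change over the square root of F, and 95% intervals use the test's degrees of freedom. CPM are counts over scaled library size. List means per library use log2 CPM with a prior count of 2. The common biological coefficient of variation was 25.5%. The test was checked on simulated data.

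The members and lists were chosen with earlier results of these data known. Named by rule were the core subunits, called Nduf genes, Ndufaf1 to Ndufaf8, Ndufa4, Ndufa4l2, the Nduf genes of highest and lowest FPKM, up to 2 called assembly factors without an Nduf name per direction, Fundc1 and the mt-Nd genes; other Nduf genes were named after their values were seen. Of the list of assembly factors without an Nduf name, 13 of 14 matched a symbol. Markers of lymphocytes (1 of 6 rose, 1 fell, median -0.027) and neutrophils (4 of 5 fell, median -2.17) were also measured. Comparison lists were chosen by symbol. The alternatives comprised scaling by RLE, by upper quartile or by library size, library sizes without mitochondrially encoded genes, 2 other filters, DESeq2 1.42.0, limma-voom (limma 3.58.1), a fit that was not robust, a replicate block, other thresholds, and leaving out libraries. Figures were drawn with matplotlib 3.10.9. 1 Nduf gene is counted in the totals but not reported by itself here.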

Additional observations from a re-analysis of the deposited data

How the results depend on the processing

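Among the Nduf genes, 0 to 2 were called higher and 0 to 3 lower under every alternative run. Called higher were 2 with upper-quartile scaling, library-size scaling, the filter of 1 CPM in 3 libraries, DESeq2 or a threshold of 0.10, 1 with the fit that was not robust, and 1 without FL 1 and EC-KO 2 together. Leaving out 1 library gave 0 to 1 higher and 0 to 3 lower, and 2547 to 6740 genes called in all. The comparison without FL 1 and EC-KO 2 called 7554 genes and 3 Nduf genes lower (Ndufaf7, Ndufa8 and Ndufa4l2). These 2 libraries were chosen because an earlier analysis placed them nearest the other group in endothelial markers, and the cause was not tested. Leaving out libraries picked in this way favours a wider difference between the groups and more calls. Calls of that comparison are therefore no independent support. Thresholds of 0.01 and 0.10 gave 2015 and 6958 genes called, with 0 and 2 Nduf genes lower. The median change of the Nduf genes ranged from -0.12 to 0.12, within the spread between libraries (pooled SD 0.15), and was below 0 without FL 1, without EC-KO 2 and without both. With library-size scaling it was 0.12, as was the median of all genes.

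With the replicate number as a block, 3848 genes and 0 Nduf genes were called, and Ndufaf7 was at -0.75 (adjusted p = 0.0697), Timmdc1 at -1.09 (0.0562) and Dmac2 at 0.60 (0.0851), while mt-Nd2 was called (0.0482). Without FL 1 and EC-KO 2, a choice of libraries that favours calls, mt-Nd5 (0.0130) and mt-Nd6 (0.00322) were called higher. Deviations of same-numbered libraries correlated at 0.049, 0.070 and -0.18. FL 2 correlated best with its own number, and FL 1 and FL 3 correlated better with another number. With 3 libraries per group these values cannot decide whether libraries of the same number were paired.

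Estimates changed sign in 57 combinations of gene and alternative, in each of which the gene passed the test in neither fit. Without FL 1 and EC-KO 2 these were Ndufb2 (-0.0078), mt-Nd3 (-0.15), Ndufa13 (-0.12), Ndufa6 (-0.032), Ndufa7 (-0.097), Ndufb10 (-0.020), Ndufb3 (-0.12), Ndufb6 (-0.15), Ndufb9 (-0.18), Ndufc1 (-0.15), Ndufc2 (-0.24), Ndufs4 (-0.12), Ndufs5 (-0.51) and Ndufv3 (0.031). Ndufs1 (0.017), Ndufs7 (0.073) and Ndufv3 (0.0053) did so with library-size scaling, Ndufs7 with upper-quartile scaling (0.064) and the 1 CPM filter (0.016), Ndufa6 and Ndufc2 without mitochondrially encoded genes (-0.0073 and -0.013) and without a filter (-0.0067 and -0.013), and Ndufc2 with limma-voom (-0.016) and the block (-0.016). With 1 library left out, ranges that crossed 0 were -0.077 to 0.084 for Ndufaf1, -0.45 to 0.013 for Ndufaf2, -0.33 to 0.10 for Ndufaf6, -0.036 to 0.24 for Ndufb2, -0.10 to 0.072 for Ndufs7, -0.035 to 0.33 for mt-Nd3, -0.11 to 0.32 for Ndufa13, -0.065 to 0.055 for Ndufa6, -0.12 to 0.12 for Ndufa7, -0.12 to 0.30 for Ndufb10, -0.14 to 0.081 for Ndufb3, -0.0034 to 0.13 for Ndufb5, -0.063 to 0.34 for Ndufb6, -0.10 to 0.16 for Ndufb9, -0.25 to 0.17 for Ndufc2, -0.051 to 0.10 for Ndufs4 and -0.29 to 0.60 for Ndufs5. Counts were low for Ndufaf6 (42 to 91 per library), Ndufaf8 (52 to 131) and mt-Nd4l (42 to 100), which limits their precision.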
